A study of Homo sapiens with 12 samples.

Results

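The BCL2 locus was described here by the H3K27ac peaks that 6 clones of the lymphoma line SUDHL4 had in a window of 300 kb around the gene, at chr18:60750000-61050000 of the human build hg19. In that window BCL2 runs on the minus strand between 60.791 and 60.987 Mb, so its 5′ end has the higher coordinate. The window held 183 peaks over the 6 lists. Peaks that shared a base were joined, which gave 33 regions of the 48876 in the whole genome, and these 33 are the members, numbered from the lowest coordinate (the 3′ end of the gene) to the highest. The locus was selected on the covered length of these same lists, in which the 1 Mb around it had been lower in EP300-KO than in WT. Values of the members in comparisons with EP300-KO are therefore a description, and the calls among them support nothing by themselves. The nearest regions outside the members lay 187.35 kb below the first and 54.02 kb above the last.

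SUDHL4 was derived from a diffuse large B-cell lymphoma and is classed with the germinal-centre type of that disease. Chromatin immunoprecipitation with sequencing mapped H3K27ac in 2 CREBBP-KO clones, 2 EP300-KO clones and 2 WT clones, each set against its own input DNA. All 6 are stable lines grown from single cells after CRISPR/Cas9 editing. Guides against exon 15 or exon 20 removed CREBBP, guides against exon 17 or exon 24 removed EP300, and the WT clones were edited at PPP1R12C, a site used as a neutral control. For the first CREBBP-KO clone, the exon in its name differs from the exon in its protocol. Each line is 1 clone, so the spread between the 2 clones of a genotype holds clonal differences as well as the error of the assay.

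CREBBP and EP300 are closely related enzymes that acetylate histones, and H3K27ac is a product of theirs that marks active promoters and enhancers. BCL2 protein sits in the outer membrane of mitochondria, where it holds back BAX and BAK and so blocks apoptosis. Germinal-centre B cells normally keep the gene low, and lymphomas of this type often carry a translocation that joins it to the immunoglobulin heavy chain locus. SUDHL4 is known as a line with this translocation. Its breakpoint was not located here, and the lists do not tell the joined copy from the other, so whether a peak lies on one copy or on both was not tested.

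The 33 regions fell into separate stretches of acetylation with long uncovered gaps between them, a grouping made after the positions were seen by taking regions no more than 10 kb apart together. The larger stretch, called the 3′ block, held 20 regions at chr18:60793963-60830312 and spanned 36.35 kb. It lay inside the transcribed part of the gene, from 156.69 to 193.04 kb downstream of the 5′ end, and its far edge was 2.96 kb short of the 3′ end. The gene ends used, 60.791 and 60.987 Mb, are rounded, so all distances from them are only as fine as that rounding. The promoter block held 7 regions at chr18:60980945-60989472, spanned 8.53 kb and straddled the 5′ end. Between them lay a small intron block of 3 regions at chr18:60950810-60952682, 28.26 kb from the promoter block and 120.5 kb from the 3′ block, and no clone had a peak in either gap. Upstream of the promoter lay a single short region and a block of 2 regions at chr18:61033428-61034814.

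**Figure D1:**
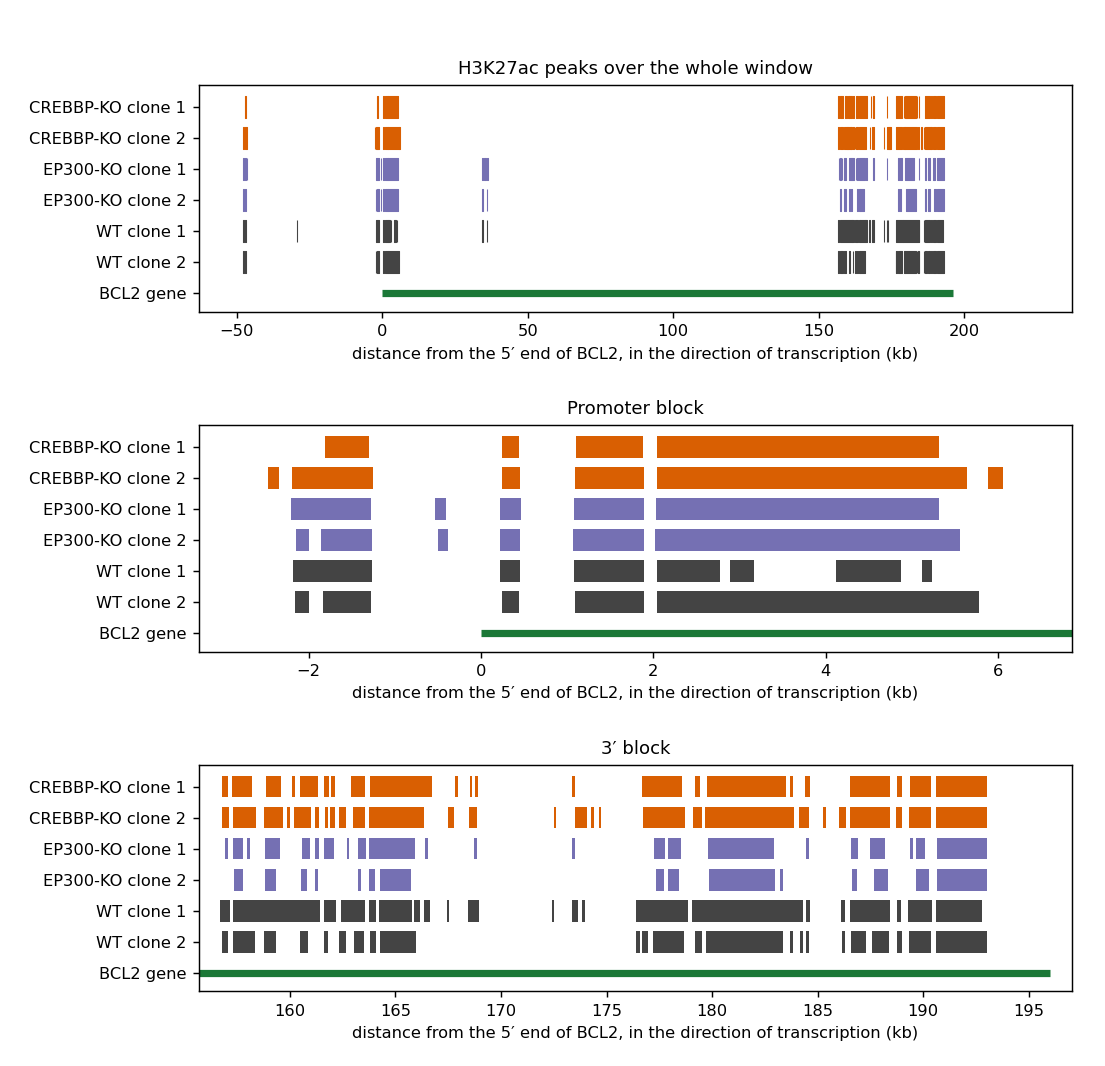
H3K27ac peaks of the 6 clones (1 row each, a bar per peak) by distance from the 5′ end of BCL2 in kb, in the direction of transcription, over the whole window, the promoter block and the 3′ block, with the gene as a green bar. All clones share a promoter block and a 3′ block that ends 2.96 kb before the end of the gene, and the bars of both EP300-KO clones cover less of the 3′ block than those of the other 4.

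The outer edge of the 3′ block was sharp and common to the clones. Its first covered base lay at 60793980 and 60793978 in the CREBBP-KO clones, at 60793975 and 60793963 in the EP300-KO clones and at 60794200 and 60793999 in the WT clones, a spread of 237 bases. Beyond that edge no clone had a peak for 187.35 kb, a stretch that covers the 3′ end of BCL2. The inner edge of the block varied by 641 bases. Both ends of the promoter block varied more, by 821 bases on the gene side and by 659 bases upstream.

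In the 3′ block EP300-KO lay below the others, while the covered lengths of the promoter block overlapped between all genotypes. The 250 bases before the annotated start of BCL2 are therefore shown. They come from RefSeq on build GRCh38.p14, chr18:63319770-63320019, on the minus strand and read 5′ to 3′, with CG dinucleotides in capitals, and were not placed against the hg19 peaks.
BCL2 promoter: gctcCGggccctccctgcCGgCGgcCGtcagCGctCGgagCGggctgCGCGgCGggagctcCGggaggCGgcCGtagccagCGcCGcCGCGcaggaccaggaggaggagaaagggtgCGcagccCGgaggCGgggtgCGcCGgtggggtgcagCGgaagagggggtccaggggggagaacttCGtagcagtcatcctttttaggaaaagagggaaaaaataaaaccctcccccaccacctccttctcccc
They hold 24 CG dinucleotides, against a median of 11 over the same stretch of 35116 promoters, and 76.3% of those promoters hold fewer. Their GC content is 70.0%, against a median of 58.0%. Both strands were searched for short promoter motifs, and none was found in the stretch. The letters GGGCGG, a GC box, are held by 42.6% of all promoters on either strand. The letters TATAAA, found in many core promoters, are held by 10.7% of them. The octamer of B-cell promoters, ATTTGCAT, is held by 1.6% of them, and the cyclic AMP response element, TGACGTCA, by 1.6%. No match says only that the letters are not in this window.

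In the lists as deposited, the EP300-KO clones had less of the window covered than either WT clone, and the CREBBP-KO clones did not. Peaks covered 24.4 and 29.3 kb in the CREBBP-KO clones, 21.6 and 17.97 kb in the EP300-KO clones and 28.7 and 23.1 kb in the WT clones. The means were 26.9 ± 3.45 kb, 19.8 ± 2.59 kb and 25.9 ± 3.96 kb (SD, n = 2 clones each). EP300-KO covered 0.765 of the WT length in the window and 0.803 of it over the whole lists. With each list cut to its 35054 highest-scoring peaks the ratio in the window was 0.856, and EP300-KO clone 1 at 21.6 kb lay just above WT clone 2 at 21.4 kb. For CREBBP-KO the ratio to WT was 1.038 in the window and 0.972 over the lists, and for CREBBP-KO against EP300-KO it was 1.357 in the window and 1.211 over the lists. The smallest p an exact permutation test of 2 clones against 2 allows is 0.333, so these lengths carry no test of their own.

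The shortfall in EP300-KO lay in the 3′ block and not at the promoter. The 3′ block covered 19.2 and 22.3 kb in the CREBBP-KO clones, 14.1 and 11.4 kb in the EP300-KO clones and 23.5 and 16.9 kb in the WT clones. Both EP300-KO clones lay below all 4 others, and the CREBBP-KO clones lay within the WT range. The EP300-KO clones were also the lowest over the whole lists, at 26.07 and 26.22 Mb against 28.2 to 35.1 Mb in the other clones. How many regions or tiles of the genome had this order was not counted, here or for the single regions and stretches below. The means were 20.7 ± 2.22 kb in CREBBP-KO, 12.7 ± 1.91 kb in EP300-KO and 20.2 ± 4.65 kb in WT (SD, n = 2 each), so EP300-KO had 0.63 of the WT length and CREBBP-KO 1.629 times the EP300-KO length. With lists of equal length the ratios were 0.713 and 1.565, with 19.2 and 20.7 kb in the CREBBP-KO clones, 14.1 and 11.4 kb in the EP300-KO clones and 20.5 and 15.2 kb in the WT clones, and both EP300-KO clones were still the lowest. The promoter block covered 4.77 and 5.86 kb in the CREBBP-KO clones, 5.41 and 5.45 kb in the EP300-KO clones and 3.86 and 5.46 kb in the WT clones. These overlapped, with EP300-KO at 1.165 times the WT mean.

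**Figure D2:**
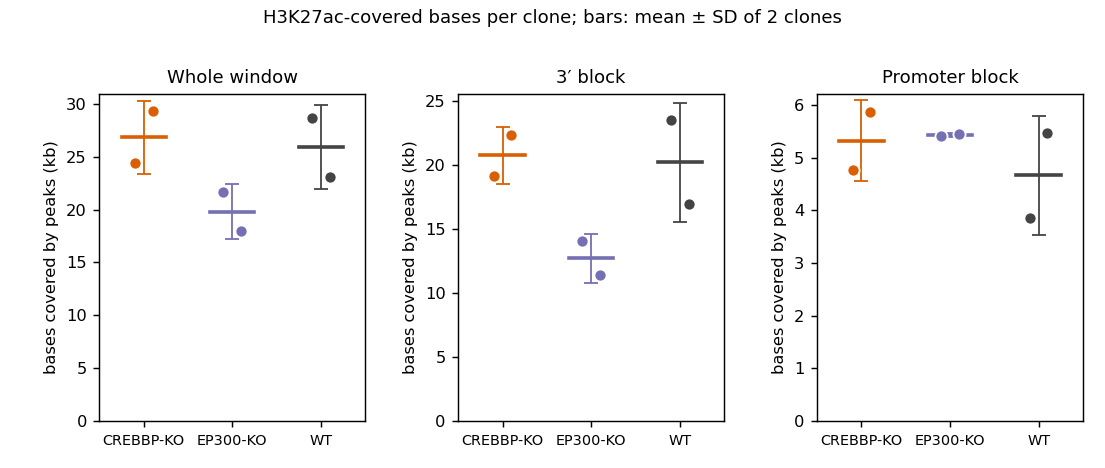
Bases covered by H3K27ac peaks (kb, axes from 0) in the whole window, the 3′ block and the promoter block, with 1 point per clone and the mean ± SD of 2 clones per genotype. Both EP300-KO clones sit below all other clones in the 3′ block, at 14.1 and 11.4 kb, while the genotypes overlap in the promoter block.

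Within each clone, the 3′ block was 4.017 and 3.808 times as long as the promoter block in the CREBBP-KO clones, 2.605 and 2.087 times in the EP300-KO clones and 6.084 and 3.099 times in the WT clones. The EP300-KO clones had the lowest ratios of the 6, also with lists of equal length, where they gave 2.605 and 2.087 and the WT clones 5.487 and 2.783. How often other pairs of stretches in the genome gave this order was not counted. The 3′ block made up 78.5% and 76.2% of the covered bases of the window in the CREBBP-KO clones, 65.1% and 63.3% in the EP300-KO clones and 81.9% and 73.3% in the WT clones. The high ratio of WT clone 1 went with the shortest promoter block of the 6 as well as the longest 3′ block.

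Base by base, the EP300-KO clones covered less of the 3′ block around cores that all clones shared. Of the 34.67 kb covered by any clone, 14.19 kb (40.9%) were covered in all 6. The 4 CREBBP-KO and WT clones covered 2716 bases that neither EP300-KO clone did, all of them in the 3′ block. Bases that the EP300-KO clones shared and WT lacked came to 168, against 3990 bases that the WT clones shared and EP300-KO lacked. For CREBBP-KO and WT these counts were 396 and 178 bases. Such bases were not counted over the whole genome, where the EP300-KO lists covered 0.803 of the WT length. Whole regions leaned the same way there, with 9.15% held by both WT and neither EP300-KO clone, against 1.74% for the reverse. The share of covered bases that 2 clones had in common, the Jaccard index, was 0.763 between the CREBBP-KO clones, 0.753 between the EP300-KO clones and 0.67 between the WT clones. Between genotypes it reached 0.772 for CREBBP-KO clone 1 with WT clone 2 and was lowest, at 0.516, for EP300-KO clone 2 with WT clone 1.

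Few whole regions differed along genotypes. All 6 clones had 13 of the 33 regions, or 39.4%, against 44.8% of all regions of the genome, and 8 were seen in 1 clone only, 5 of these in CREBBP-KO clone 2. No region was shared by the CREBBP-KO clones and absent from WT (1.25% of all regions were) or the reverse (3.05%). Regions 3 and 5, of 296 and 303 bases in the 3′ block, were held by the WT clones and by no EP300-KO clone, 6.1% of the members against 9.15% of all regions. Region 28, of 148 bases in the promoter block, was the 1 region that the EP300-KO clones held and WT lacked, against 1.74% of all regions. Regions 21, 23 and 28 were held by the EP300-KO clones and not by CREBBP-KO (2.79% of all regions), and region 3 alone by the CREBBP-KO clones and not by EP300-KO (6.5%). None of these regions reached 500 bases in width.

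**Figure D3:**
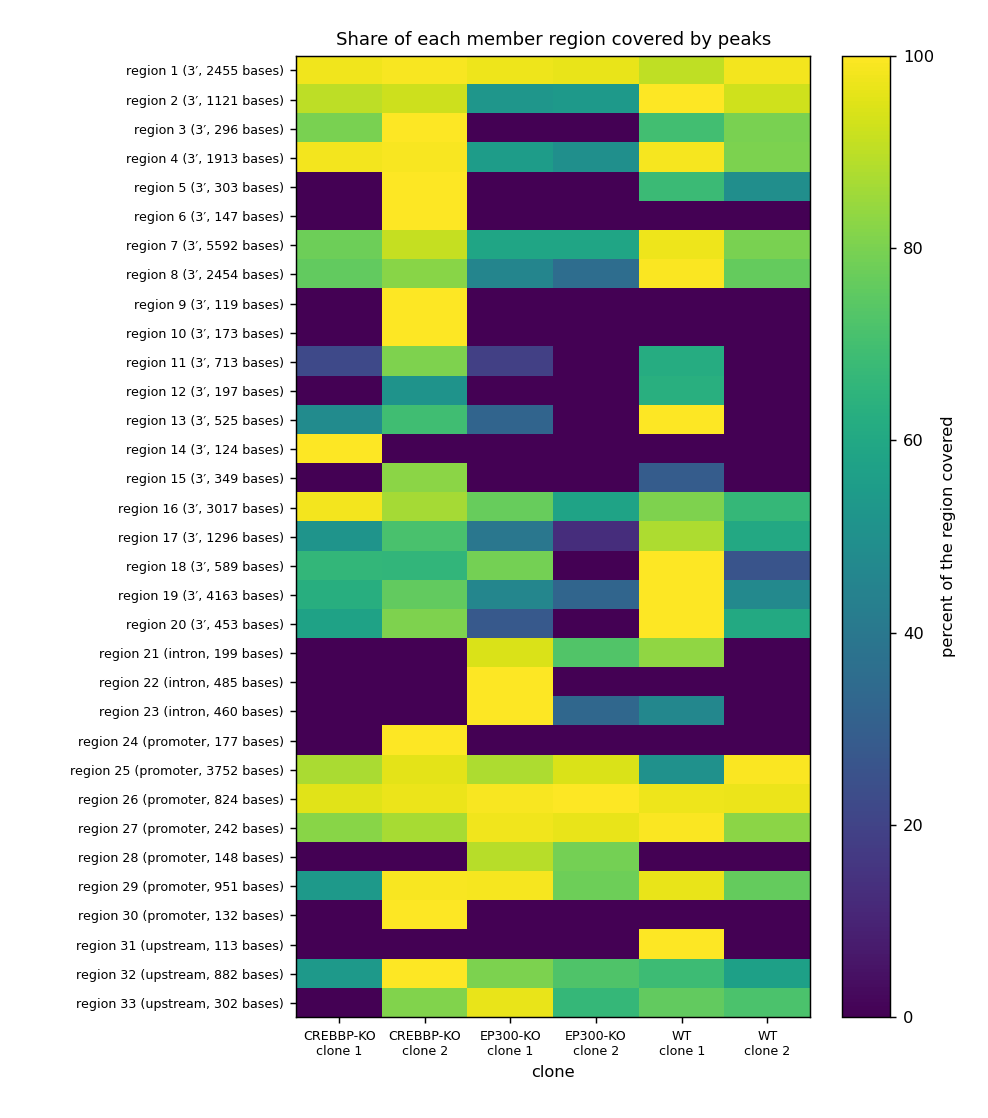
Percent of each of the 33 member regions (rows, from the 3′ end of BCL2 to upstream of its promoter, with region widths) covered by peaks in each clone (columns). Regions 2, 4, 7 and 8 of the 3′ block are darker, at lower cover, in both EP300-KO columns than in the CREBBP-KO and WT columns, while region 26 at the promoter is nearly filled in every clone.

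Of the regions in the 3′ block, region 1 at chr18:60793963-60796417, the one nearest the 3′ end of the gene, did not share the shortfall. It had 2400 and 2435 covered bases in the CREBBP-KO clones, 2397 and 2376 in the EP300-KO clones and 2218 and 2414 in the WT clones, with 2139 bases common to all 6. WT overlapped both knock-outs there, and the EP300-KO clones lay just below the CREBBP-KO clones. The strongest peak of region 1 ranked at percentiles 89.6 and 88.7 of the authors' score within the CREBBP-KO lists, percentiles 76.9 and 82.0 within the EP300-KO lists and percentiles 84.2 and 83.3 within the WT lists. By that rank both EP300-KO clones lay below all other clones. The score is a value the authors gave each peak without a stated meaning, and it serves here for ranks inside a list alone.

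Region 7, at chr18:60802366-60807957 the longest member with 5592 bases, had 4348 and 5096 covered bases in the CREBBP-KO clones, 3284 and 3279 in the EP300-KO clones and 5455 and 4476 in the WT clones. Both EP300-KO clones lay below all others, as they did over the whole lists, and 3085 bases were common to all 6 clones. Its strongest peak ranked at percentiles 87.6 and 89.4 in the CREBBP-KO lists, 94.0 and 92.3 in the EP300-KO lists and 93.8 and 91.5 in the WT lists, so the rank of that peak was no lower in EP300-KO. Region 8 next to it, at chr18:60808148-60810601, had 1866 and 2021 covered bases in the CREBBP-KO clones, 1120 and 879 in the EP300-KO clones and 2442 and 1877 in the WT clones. There the rank of the strongest peak was lower too, at percentiles 76.6 and 74.8 in CREBBP-KO, 47.7 and 31.8 in EP300-KO and 79.7 and 69.6 in WT.

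In regions 2 and 4 too the EP300-KO clones had the least. Region 4, at chr18:60798574-60800486, had 1883 and 1893 covered bases in the CREBBP-KO clones, 1060 and 956 in the EP300-KO clones and 1889 and 1536 in the WT clones. Region 2, at chr18:60796594-60797714, had 1011 and 1036 in the CREBBP-KO clones, 589 and 604 in the EP300-KO clones and 1121 and 1039 in the WT clones. In both, the EP300-KO clones did not overlap the others. They also had the least covered length over the whole lists, so this order by itself does not set these regions apart.

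Toward the promoter side of the block, region 19, at chr18:60825561-60829723, had 2603 and 3171 covered bases in the CREBBP-KO clones, 1905 and 1359 in the EP300-KO clones and 4151 and 1960 in the WT clones, so WT clone 2 lay near EP300-KO clone 1. Region 17, at chr18:60823396-60824691, had 670 and 925 in the CREBBP-KO clones, 513 and 169 in the EP300-KO clones and 1137 and 783 in the WT clones. Region 16, at chr18:60820253-60823269, had 2967 and 2614 in the CREBBP-KO clones, 2318 and 1754 in the EP300-KO clones and 2438 and 2015 in the WT clones. In region 16 the EP300-KO and WT clones overlapped and the CREBBP-KO clones lay above both. Regions 11, 13, 18 and 20, each at most 713 bases wide, were uncovered in EP300-KO clone 2 and held 127 to 465 bases in EP300-KO clone 1, and WT clone 2 also lacked regions 11 and 13.

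At the promoter, region 25 at chr18:60981226-60984977 lies just inside the gene. It had 3273 and 3598 covered bases in the CREBBP-KO clones, 3284 and 3539 in the EP300-KO clones and 1899 and 3733 in the WT clones, so WT clone 1 stood apart below the other 5. Region 26, at chr18:60985105-60985928, was covered over nearly the same length in all clones, with 786 and 801 in the CREBBP-KO clones, 817 and 821 in the EP300-KO clones and 803 and 800 in the WT clones. Its strongest peak was the highest-ranked of the promoter block in every list, at percentiles 91.8 and 92.6 in CREBBP-KO, percentiles 97.8 and 96.9 in EP300-KO and percentiles 89.0 and 95.7 in WT. Both EP300-KO clones ranked above all 4 others there.

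The region nearest the 5′ end of the gene was region 27 at chr18:60986541-60986782, with 199 and 210 covered bases in the CREBBP-KO clones, 237 and 234 in the EP300-KO clones and 241 and 200 in the WT clones. Its rank was likewise highest in EP300-KO, with percentiles 62.0 and 62.2 in CREBBP-KO, 79.2 and 79.3 in EP300-KO and 72.1 and 61.8 in WT. Region 28, upstream of the start at chr18:60987388-60987535, had 132 and 117 bases in the EP300-KO clones and none in the others. Its peaks ranked at percentiles 24.7 and 9.3, near the low end of those lists. Region 29, at chr18:60988256-60989206, had 514 and 942 bases in the CREBBP-KO clones, 937 and 740 in the EP300-KO clones and 919 and 726 in the WT clones.

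The intron block was seen in both EP300-KO clones and in no CREBBP-KO clone. It covered 0 bases in both CREBBP-KO clones, 1.133 and 0.299 kb in the EP300-KO clones and 0.379 kb in WT clone 1 and 0 in WT clone 2. The EP300-KO and WT clones overlapped. The best-ranked peak there was at percentile 58.5 in EP300-KO clone 1, percentile 22.9 in EP300-KO clone 2 and percentile 15.6 in WT clone 1. The upstream block had 0.478 and 1.126 kb in the CREBBP-KO clones, 0.999 and 0.839 kb in the EP300-KO clones and 0.834 and 0.717 kb in the WT clones. There the EP300-KO clones lay just above the WT clones, and the CREBBP-KO clones spanned both.

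Covered length was then compared over the whole genome with limma, on log2(covered bases + 100), centred on the median of each clone. A region entered if 2 or more clones covered 500 or more of its bases (19860 regions, 12 of the 33 members). The spread was estimated jointly over the 6 clones, and a region was called at a Benjamini-Hochberg adjusted p under 0.05. This filter keeps long members, so the 12 do not stand for all 33. Centring took off a shift of -0.20 between EP300-KO and WT and of 0.16 between CREBBP-KO and EP300-KO on the log2 scale, so the differences below are relative to the typical region.

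Between EP300-KO and WT, region 8 was lower at a log2 difference of -0.84 (SE 0.16, limma adjusted p = 0.0417), the 1 member called of 12, while 6.13% of all regions tested were called lower. No member was called higher, against 1.21% of all regions, and at an unadjusted p under 0.05 there were 5 of 12, against 24.9%. The call for region 8 held in 6 of 15 alternative settings, over which its limma adjusted p ran from 0.031 to 0.12, and it was lost on leaving out either CREBBP-KO clone, EP300-KO clone 2 or either WT clone. The next members did not pass, with log2 differences of -0.56 (SE 0.12, limma adjusted p = 0.055) for region 2, -0.50 (SE 0.13, limma adjusted p = 0.0867) for region 4, -0.37 (SE 0.09, limma adjusted p = 0.0727) for region 7 and -1.16 (SE 0.41, limma adjusted p = 0.162) for region 17. Region 17 was -1.74 and passed without EP300-KO clone 1 (limma adjusted p = 0.026), and was -0.56 without EP300-KO clone 2.

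After centring, the signs split by block in this comparison. Of the 8 regions tested in the 3′ block 6 were negative, with a median of -0.53, and the other two were region 1 at 0.25 and region 16 at 0.07, which turned negative without centring, without EP300-KO clone 1 and without WT clone 2. All 3 tested in the promoter block were positive, with a median of 0.23 and none past the threshold (limma adjusted p of 0.308 to 0.53). Without centring, regions 26 and 29 were 0.028 and 0.025 and region 1 was 0.043, so their positive values were mostly the centring shift. Region 25 was 0.34 without centring, 0.04 without WT clone 1 and 1.05 without WT clone 2. Over the 12 members the median was -0.15, and over all regions tested it was 0.06.

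Between CREBBP-KO and EP300-KO, region 4 was higher at a log2 difference of 0.68 (SE 0.13, limma adjusted p = 0.0379) and region 8 at 0.74 (SE 0.16, limma adjusted p = 0.0495). That is 2 of 12 members, where 7.21% of all regions were called higher, and no member was called lower, against 1.9%. At an unadjusted p under 0.05 there were 4 of 12, against 27.3% of all regions. In the 3′ block 7 of 8 regions were positive, with a median of 0.58, and in the promoter block all 3 were negative, with a median of -0.20. Centring took off 0.164 here, close in size to the values of regions 25 and 26, at -0.155 and -0.204. The median over the 12 was 0.31, and over all regions -0.04. Region 4 was called in 10 of 15 alternatives (limma adjusted p from 0.024 to 0.14) and region 8 in 5 of 15 (0.038 to 0.17). Both were lost on leaving out any 1 of the 4 clones compared. This comparison shares its EP300-KO clones with the one above.

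Between CREBBP-KO and WT no member passed with limma, none of the 12 had an unadjusted p under 0.05, where 8.83% of all regions had, and 0.0101% of all regions were called lower and 0 higher. The log2 differences of the members ran from -0.20 in region 17 to 0.39 in region 25, with a median of 0.03, against 0.02 over all regions. The value of region 25 was -0.12 without WT clone 1, and 0.89 without WT clone 2, where it was called (limma adjusted p = 0.049).

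**Figure D4:**
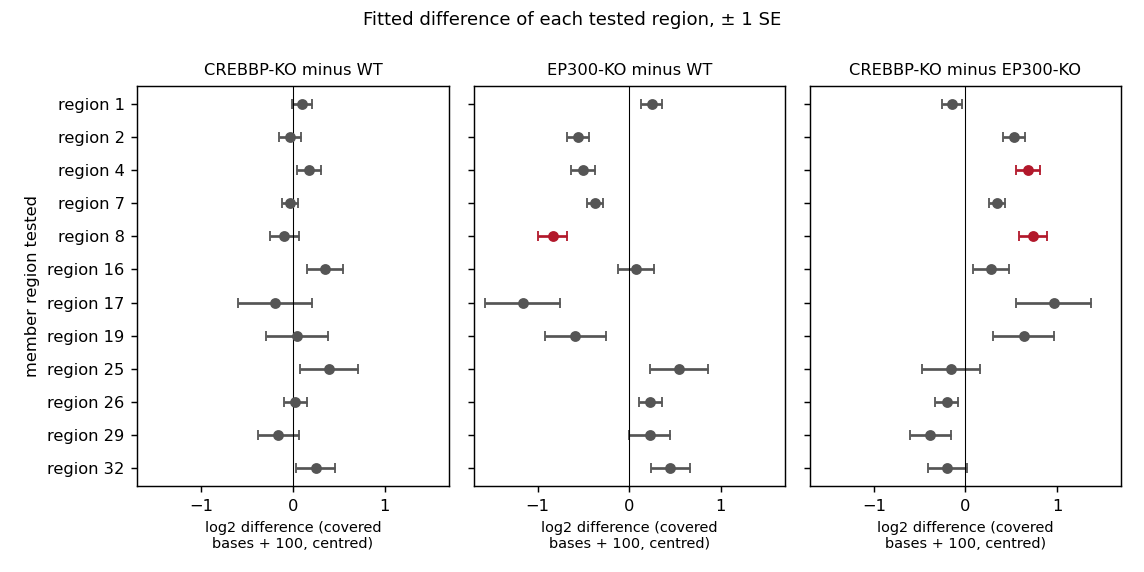
Fitted log2 difference in covered bases (points, with bars of ± 1 SE) of the 12 member regions tested, for CREBBP-KO minus WT, EP300-KO minus WT and CREBBP-KO minus EP300-KO, with calls at a limma adjusted p under 0.05 in red. In the middle panel 6 of the 8 regions of the 3′ block lie left of 0 and the 3 of the promoter block right of it, and region 8 is the 1 called.

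As a single tile of 300 kb among 4438 tested tiles of that size, the window passed the threshold in no comparison. Its log2 difference was 0.15 for CREBBP-KO against WT (SE 0.11, limma adjusted p = 0.541, percentile 72.7 of tiles), where 0.0451% of tiles were called lower and 0.0225% higher. It was -0.16 for EP300-KO against WT (SE 0.11, limma adjusted p = 0.342, percentile 29.5), where 8.63% of tiles were called lower and 3.49% higher, and quantile normalization brought it to 0.002. It was 0.31 for CREBBP-KO against EP300-KO (SE 0.11, limma adjusted p = 0.0944, percentile 77.8), where 13.2% were called higher and 5.25% lower. Quantile normalization gave 0.059 for CREBBP-KO against WT and 0.058 for CREBBP-KO against EP300-KO. Without centring the value for CREBBP-KO against WT was 0.055 and that for EP300-KO against WT -0.38, which was -0.09 with lists of equal length. Leaving out EP300-KO clone 2 gave -0.03 for EP300-KO against WT and 0.18 for CREBBP-KO against EP300-KO, and leaving out EP300-KO clone 1 gave -0.30 for the first of these. Without WT clone 1 the value for EP300-KO against WT was -0.09 and for CREBBP-KO against WT 0.23, and without WT clone 2 they were -0.25 and 0.07. In none of 15 alternatives did the tile pass in any comparison.

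Cut into tiles of 100 kb, the differences at the ends of the window had opposite signs in both comparisons with EP300-KO. The tile with the 3′ block had a log2 difference of -0.43 for EP300-KO against WT (SE 0.14, limma adjusted p = 0.12). The tile with the promoter, which also holds the intron block and the upstream regions, had 0.53 (SE 0.15, limma adjusted p = 0.0849). Before centring, its promoter block covered 5.43 kb in EP300-KO and 4.66 kb in WT, and its intron block 0.716 and 0.19 kb. Neither tile passed, where 7.24% of the 7027 tiles of this size were called lower and 2.16% higher. For CREBBP-KO against EP300-KO the tile with the 3′ block was called, at 0.58 (SE 0.14, limma adjusted p = 0.0489), where 10.7% of tiles were called higher, and the promoter tile was not, at -0.34 (SE 0.15, limma adjusted p = 0.195), where 3.29% were called lower. For CREBBP-KO against WT neither was called, at 0.15 and 0.19 (limma adjusted p of 0.685 and 0.611). Of all tiles of this size limma called 0% lower and 0% higher there, with 964 of 7027 at an unadjusted p under 0.05. Tiles of 100 kb were fitted in a single setting, so the call of the 3′ tile was not checked against alternatives.

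**Figure D5:**
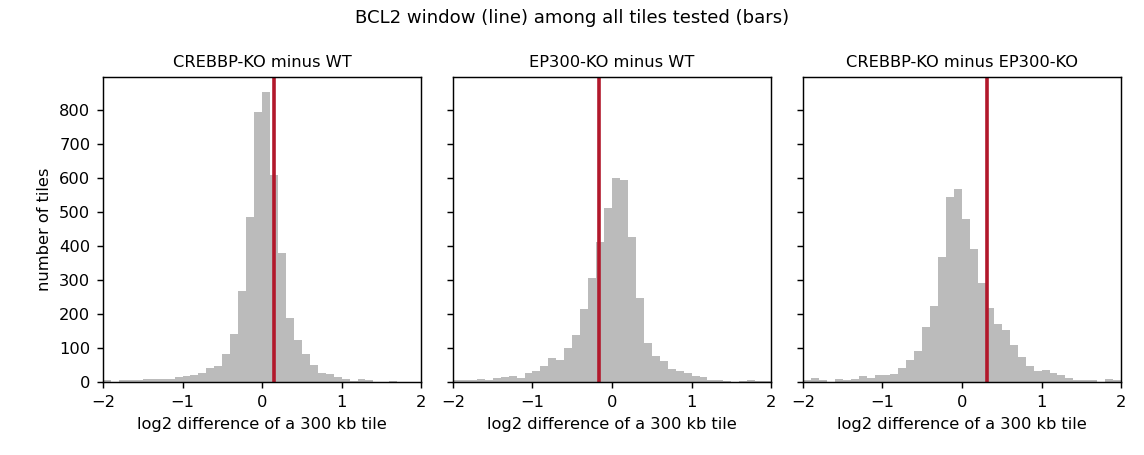
Number of 300 kb tiles (bars, 4438 tested) by fitted log2 difference in covered bases for each comparison, with the BCL2 window as a red line and the view limited to differences between -2 and 2. The line lies inside the bulk of the tiles in all panels, at 0.15, -0.16 and 0.31.

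By covered length the window stood high in the genome in every genotype. It ranked 154 of 5548 tiles with any peak in CREBBP-KO, 166 in EP300-KO and 173 in WT by mean covered length. The median tested tile had 4.08 kb in CREBBP-KO, 3.61 kb in EP300-KO and 4.29 kb in WT. The median peak width in the window was 478 and 366 bases in the CREBBP-KO clones, 399 and 375 in the EP300-KO clones and 348 and 344.5 in the WT clones. The medians of the whole lists were 426 to 491 bases, above those of the window in every clone but CREBBP-KO clone 1.

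The window makes up part of a larger stretch. In the 1 Mb between 60 and 61 Mb, a split made after the values were seen, the covered length of EP300-KO minus that of WT was -17.4 kb. Of that, -6.18 kb (35.6%) lay in the part of the BCL2 window below 61 Mb, which leaves out the upstream regions. The other -11.2 kb lay at lower coordinates, beyond the uncovered 187.35 kb. The lower stretch had 14.9 and 22.7 kb in the CREBBP-KO clones, 10.9 and 13.2 kb in the EP300-KO clones and 24.1 and 22.4 kb in the WT clones. There too both EP300-KO clones lay below all others, as they did over the whole lists. In the GRCh38 gene table the next gene on that side of BCL2 is PHLPP1, a phosphatase of the AKT pathway.

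The other genes of the BCL2 family were looked at through the 300 kb tile that holds each one, 16 genes from MCL1 to HRK, with hg19 positions from general knowledge. Each tile holds other genes too, so its value is not that of the gene alone. Between EP300-KO and WT 1 of 16 was lower and 0 higher, with a median log2 difference of -0.08, and 8.63% and 3.49% of all tiles were called in those directions. The one was the tile of HRK, a BH3-only protein that promotes apoptosis, with 12.8 ± 2.73 kb in CREBBP-KO, 8.46 ± 0.127 kb in EP300-KO and 13.9 ± 0.069 kb in WT (SD, n = 2 each). Its log2 difference from WT in EP300-KO was -0.49 (SE 0.09, limma adjusted p = 0.022), it passed in 12 of 15 alternatives (limma adjusted p from 0.016 to 0.16), and it was lost without either EP300-KO clone.

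Between CREBBP-KO and EP300-KO 2 of 16 were higher and 0 lower, where 13.2% of tiles were called higher. They were the tiles of HRK, at 0.45, and of BCL2L11, at 0.45, with SEs of 0.086 and 0.084 and a limma adjusted p of 0.022 each. BCL2L11 encodes BIM, a BH3-only protein that BCL2 binds, and its tile had 18.6 ± 3.72 kb in CREBBP-KO, 12.4 ± 0.096 kb in EP300-KO and 15.985 ± 0.165 kb in WT. Over 15 alternatives the limma adjusted p ran from 0.013 to 0.14 for HRK and from 0.0097 to 0.13 for BCL2L11, and both calls were lost without any 1 of these 4 clones. Between CREBBP-KO and WT limma called none of the 16, and 2 had an unadjusted p under 0.05, against 14.8% of all tiles.

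The relatives of BCL2 that also hold back apoptosis did not pass in EP300-KO against WT. The tile of MCL1 had 23.3 ± 4.16 kb in CREBBP-KO, 19.01 ± 0.118 kb in EP300-KO and 22.5 ± 0.793 kb in WT, with a log2 difference of -0.02 for EP300-KO against WT (limma adjusted p = 0.84). For BCL2L1, which encodes BCL-XL, that difference was -0.12 (limma adjusted p = 0.58), and for BCL2A1 it was -0.22 (limma adjusted p = 0.16). For BCL2L10 it was -0.08 (limma adjusted p = 0.82), and for BCL2L2 it went the other way, at 0.11 (limma adjusted p = 0.55). The tiles of BAX and BAK1, the pore-forming proteins that BCL2 holds back, gave -0.08 (limma adjusted p = 0.48) and -0.11 (limma adjusted p = 0.52). The tile of their relative BOK gave 0.09 (limma adjusted p = 0.55).

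The tiles most like the window in covered length over the 6 clones were sought among the 720 tiles with at least 50% of its WT covered length. The closest was chr21:36150001-36450000, with a Pearson r of 0.929 over 6 clones, and only that one exceeded 0.9. The next were chr15:85950001-86250000 at 0.88, chr7:47550001-47850000 at 0.848, and chr8:120750001-121050000 and chr2:16650001-16950000 at 0.839 each. The 6 clones share the total length of each list, so these are descriptions without a test.

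The whole lists had 36096 and 41099 peaks in CREBBP-KO, 35054 and 35841 in EP300-KO and 46940 and 40658 in WT, and read depth per library is unknown. The B-cell genes MS4A1 and PAX5 were covered in all 6 clones, with 4772 to 5674 bases for MS4A1 and 16107 to 22700 for PAX5. LYZ of myeloid cells and ALB of liver had 0 bases in all 6. CD3E, a gene of the T-cell receptor complex, had 2730 and 3696 bases in the CREBBP-KO clones, 2891 and 2536 in the EP300-KO clones and 3147 and 2596 in the WT clones, with no gap between genotypes, and its part in the results was not tested.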

How the data were processed

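Per the submitters' processing notes, reads were handled with CASAVA 1.8, Bowtie2 2.1.0 and SAMtools 0.1.19 on hg19. Per the file headers, the authors called each clone's peaks separately, with its input as control. Which caller made them is not stated in the sources used here. The deposited score per peak runs up to 170 with no stated meaning. Positions were taken to count from 0, on which the files are silent, and starts are printed from 1, so each carries an uncertainty of 1 base. Read depth is unknown, and covered length depends on it and on the caller's threshold.

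From these lists, bases covered per clone were computed for merged regions and for 300 kb tiles (those with 1000 or more covered bases in 2 or more clones), and fitted with limma 3.58.1 (R 4.3.3), tested on simulated data. The spread was allowed to follow the mean level, a choice made with both outcomes seen. Replicate numbers in accession order only name clones. Named regions were those nearest the gene ends, the 6 longest by covered bases, regions private to a genotype, and those with the largest fitted differences; regions 2, 3, 4, 5, 11, 13, 18, 20, 21, 23, 26 and 28 and the blocks were picked after their values were seen where they fall outside this. The members and gene lists were chosen with earlier results of these data known.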

Additional observations from a re-analysis of the deposited data

How the results depend on the processing

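No paired analysis was possible because the labels give no replicate numbers that tie clones across genotypes. Over all alternatives run, 111 of 120 covered lengths of the window and its parts stayed within 1 SD. The other 9 were lengths of parts, mostly with the edges of the parts set 2 kb from the gene ends. The count says little, because leaving out 1 of 2 clones cannot move their mean past its SD, apart from rounding. It also leaves the means of the other genotypes as they were. The shortfall of EP300-KO in the window was smaller with lists of equal length, at 19.8 kb against 23.1 kb in WT. Called counts moved. Between EP300-KO and WT the 1 member called lower became 3 with a pseudocount of 1000 or without centring, and 0 without the filter, with lists of equal length, with the 4 clones compared alone or without the trend (added after seeing the data). Leaving out 1 clone gave 0 to 2 lower and 0 to 1 higher. Between CREBBP-KO and EP300-KO the 2 called higher became 1 with a pseudocount of 10, no filter, quantile normalization, lists of equal length, scores of at least 30 or peaks up to 500 bases apart joined, 0 without the trend, 3 without centring, and 0 to 2 on leaving out 1 clone. Between CREBBP-KO and WT leaving out 1 clone gave 0 to 1 higher.

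Regions in all clones were 7 with peaks joined and ran from 13 to 15 on leaving out 1 clone. Joining fuses neighbouring regions, so counts with peaks joined are out of another total than the 33 members. Regions in every CREBBP-KO clone and no WT clone were 1 with equal lists, and 0 to 5 on leaving out 1 clone, and the reverse 0 to 3. Those in every EP300-KO clone and no WT clone were 3 with equal lists, 2 at scores of at least 30 and 1 to 3 on leaving out 1 clone. The reverse gave 0 with equal lists, at scores of at least 30 or with peaks joined, 4 at a cover of at least 50%, and 2 to 5 on leaving out 1 clone. Those in every CREBBP-KO clone and no EP300-KO clone were 2 at scores of at least 30, 0 with peaks joined, 5 at a cover of at least 50% and 1 to 9 on leaving out 1 clone.

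Signs turned for the whole tile in EP300-KO against WT under quantile normalization (0.002), and for its promoter tile of 100 kb (0.53), as also in CREBBP-KO against EP300-KO (-0.34), where the 3′ tile passed at 0.58. Region 17 turned in CREBBP-KO against WT with equal lists (2.15), scores of at least 30 (0.34) and without WT clone 1, and in EP300-KO against WT with equal lists (1.18). Region 25 turned in CREBBP-KO against WT without WT clone 1. Region 16 turned in EP300-KO against WT without centring (-0.13), without EP300-KO clone 1 (-0.11) and without WT clone 2 (-0.03). On leaving out 1 clone, the ranges were -0.40 to 0.008 for region 17 and -0.12 to 0.89 for region 25 in CREBBP-KO against WT, and -0.11 to 0.27 for region 16 in EP300-KO against WT. The cause was not tested. Depth is unknown, so a base outside the peaks of a list is a base not called at that depth, not one without acetylation.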
